A study of Mus musculus with 2 samples.

Results

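The 8 subunits of the CCT chaperonin, also called TRiC, were followed in poly(A) RNA of mouse embryonic stem cells. The members are the 8 rows, of 24061 in the count table, whose symbol is Tcp1, Cct2, Cct3, Cct4, Cct5, Cct6a, Cct7 or Cct8. They were chosen by complex, with Cct5 set against its 7 partner subunits, and that contrast was selected on the read counts of these same libraries. The values of the members are therefore descriptions, and none was tested.

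The comparison set a library labelled control against one labelled Pc4-OE, for overexpression of the transcriptional coactivator Pc4 (gene Sub1). Both came from C57BL/6 stem cells kept on embryonic fibroblast feeders with 1000 U/ml of leukaemia inhibitory factor and 20% serum replacement, at passages 17 to 23 for the control label and 24 to 37 for the Pc4-OE label. The design text describes 3 overexpressing lines, picked as fluorescent colonies after infection with a Venus-expressing lentivirus, and which of them gave the library is not stated in the labels, nor is whether feeder cells were removed before RNA extraction. Passage, viral infection, colony picking and group cannot be told apart, and no difference below has a replicate check.

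CCT is a cytosolic folding machine built as a pair of stacked rings, each with 1 copy of all 8 subunits. It takes in newly made actin, tubulin and many WD-repeat proteins, some handed over by prefoldin, and closes a built-in lid on them as it hydrolyses ATP. The subunits are paralogs with a common fold, and they differ in their client contacts and in how tightly they bind ATP. Tcp1, Cct2, Cct4 and Cct5 make up the side of the ring with the higher ATP affinity, and Cct3, Cct6a, Cct7 and Cct8 the other side.

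The genes lie on 8 different chromosomes, so each has a promoter and surroundings of its own. RefSeq promoter entries (GRCm38.p6, 250 bases before to 50 after the start) were found for 7 of the 8 genes, with 9 starts in all, and Cct4 had no entry. The promoters below are those of the 2 subunits that differed most between the libraries, Cct5 and Cct6a, and of the 2 with an entry that differed least, Cct2 and Cct7, at the start farthest upstream. The 250 bases before the start are printed, and capitals mark the motifs spelled out in the next paragraph, on either strand.
Cct5, chr15:31601847-31602096, minus strand: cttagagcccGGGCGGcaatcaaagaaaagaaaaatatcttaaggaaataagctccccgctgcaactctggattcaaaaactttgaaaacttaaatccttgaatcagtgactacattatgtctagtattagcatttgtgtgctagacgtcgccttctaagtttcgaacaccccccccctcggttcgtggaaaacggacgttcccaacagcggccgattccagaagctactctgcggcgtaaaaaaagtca
Cct6a, chr5:129787106-129787355, plus strand: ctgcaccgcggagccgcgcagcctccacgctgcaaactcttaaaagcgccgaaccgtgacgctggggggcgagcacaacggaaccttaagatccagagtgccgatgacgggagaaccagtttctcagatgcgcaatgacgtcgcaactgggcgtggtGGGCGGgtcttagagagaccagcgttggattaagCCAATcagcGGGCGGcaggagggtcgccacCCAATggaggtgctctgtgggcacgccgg
Cct2, chr10:117063853-117064102, minus strand: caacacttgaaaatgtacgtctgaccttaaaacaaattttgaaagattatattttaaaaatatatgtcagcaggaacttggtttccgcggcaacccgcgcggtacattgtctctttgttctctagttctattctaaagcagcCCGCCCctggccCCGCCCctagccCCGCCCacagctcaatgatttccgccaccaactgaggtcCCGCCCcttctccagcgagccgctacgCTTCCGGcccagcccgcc
Cct7, chr6:85451255-85451504, plus strand: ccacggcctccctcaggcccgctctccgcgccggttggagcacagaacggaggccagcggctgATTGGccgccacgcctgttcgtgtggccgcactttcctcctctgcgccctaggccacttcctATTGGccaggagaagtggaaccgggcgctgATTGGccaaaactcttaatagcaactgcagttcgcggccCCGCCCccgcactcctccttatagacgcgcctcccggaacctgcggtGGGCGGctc

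Each motif was searched on both strands of the 9 entries and of all 32851 promoters of the same length. For the upstream starts of Cct5 and Cct2, unlike the other entries, the end of the entry was not found in an annotated transcript. The downstream start of Cct5 held 0 of the searched motifs, so the matches given for Cct5 rest on its upstream start. GGGCGG, the box bound by SP factors, was in 8 of 9 entries and in 35.7% of all promoters. CCAAT, the NF-Y box, was in 4 of 9 (Tcp1, Cct3, Cct6a and Cct7) and in 37.4% of all. CCGGAAG, an ETS core, was in 3 of 9 (Tcp1, Cct2 and Cct8) and in 8.86% of all. The heat shock element GAANNTTC was in 1 of 9, the downstream start of Cct2, and in 7.86% of all. The NRF1 core GCATGCGC was in 1 of 9, the upstream start of Cct5, and in 2.71% of all. There it matched on both strands, in overlapping matches that lie within the 50 bases after the start and so outside the printed line. No other searched motifs overlapped each other in the printed lines. CACGTG, the E-box of MYC and its relatives, and TATAAA were in 0 of 9, and in 7.15% and 13.6% of all. A match is a description of these letters and not of binding.

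The library labelled control held 10571463 counts and the one labelled Pc4-OE 10194783. Values are CPM, counts scaled to a common library size with TMM factors, which allow for differences in RNA composition. A log2 ratio is the library labelled Pc4-OE over the library labelled control. Intervals (95%) cover counting error alone, as the spread between cultures was not measured. Sub1 itself was 2.26-fold lower in the library labelled Pc4-OE (interval 2.15 to 2.37), against its label. An exchange of the labels was not tested and would turn every direction given here, so directions are those of the labels.

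CCT transcripts were less abundant in the library labelled Pc4-OE. The 8 rows together took 73109 counts, 0.692% of the library labelled control, and 51344 counts, 0.504% of the library labelled Pc4-OE. On the CPM scale their sum went from 7021 to 4961, 29.3% lower. The median log2 ratio of the 8 subunits was -0.38, beside -0.01 for the 14213 measured genes (at least 20 counts over both libraries) and -0.18 for the 2615 whose mean reached 100 CPM. All 8 ratios were below 1, except that the log2 ratio of Cct4 was 0.00, on the positive side, when the libraries were scaled by their totals.

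Cct5, the epsilon subunit, differed most. It had 15240 counts (1464 CPM) in the library labelled control and 6948 counts (671.3 CPM) in the library labelled Pc4-OE. That is 2.18-fold lower (interval 2.12 to 2.24), a log2 ratio of -1.12. It was the only one of the 8 subunits to meet the 2-fold rule, a ratio of at least 2 either way with an interval that excludes 1. The rule was met in the lower direction by 4.02% of all measured genes and by 2.6% of those whose mean reached 100 CPM. In the higher direction it was met by 0 subunits and by 11.8% of all measured genes. Among the 2615 abundant genes, 38 had a lower ratio than Cct5.

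Cct6a, the zeta subunit, came next and stayed short of the 2-fold rule. It went from 8834 counts (848.4 CPM) to 4670 (451.2 CPM), 1.88-fold lower (interval 1.81 to 1.95). The other 6 subunits differed less, with log2 ratios from -0.44 to -0.04 and a median of -0.33.

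On the side of the ring with the higher ATP affinity, each partner of Cct5 differed less than Cct5 did. Tcp1, the alpha subunit and the first to be described, went from 691.8 to 525.9 CPM (7204 and 5443 counts), 1.32-fold lower. Cct2, the beta subunit, went from 864.1 to 731.3 CPM (8998 and 7569 counts), 1.18-fold lower. Cct4, the delta subunit, stood at 673.4 and 655.1 CPM (7012 and 6780 counts), a log2 ratio of -0.04 whose interval of -0.09 to 0.01 includes 0. Cct4 was thus the subunit closest to the same level in both libraries.

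On the other side of the ring, Cct6a stood below its 3 neighbours of that side. Cct3, the gamma subunit, went from 810.8 to 597.2 CPM (8443 and 6181 counts), 1.36-fold lower. Cct8, the theta subunit, went from 914.2 to 707.1 CPM (9519 and 7318 counts), 1.29-fold lower. Cct7, the eta subunit, went from 754.7 to 621.7 CPM (7859 and 6435 counts), 1.21-fold lower. Counting intervals lay wholly below 1 for 7 of the 8 subunits, as they did for 33.1% of all measured genes. Cct4 was the exception, but not with median-of-ratios size factors, which gave 8 of 8. Abundant genes have narrow intervals, and above a mean of 100 CPM the share was 57.9%. The count of 7 of 8 is thus to be read against the latter share.

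**Figure D1:**
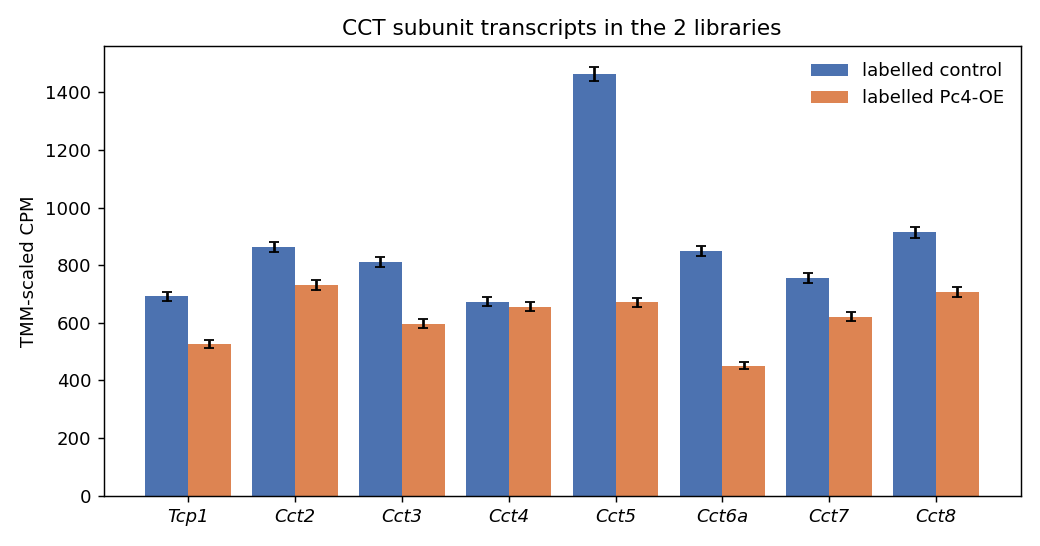
Bars give TMM-scaled CPM of each CCT subunit gene (x axis) in the library labelled control and the library labelled Pc4-OE, with 1 library each and exact 95% Poisson intervals of the counts. Cct5 stands at 1464 and 671.3 CPM, and Cct4 at 673.4 and 655.1 CPM. Heights of different genes also depend on transcript length.

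The share of each subunit within the 8 rows does not depend on how the libraries are scaled. Cct5 held 20.8% of the CCT counts in the library labelled control (exact Clopper-Pearson interval 20.6% to 21.1%) and 13.5% in the library labelled Pc4-OE (13.2% to 13.8%). An equal split of counts would give 12.5%. Its odds against the 7 partners were 1.68-fold lower in the library labelled Pc4-OE (exact conditional interval 1.63 to 1.74). The share of Cct6a also went down, from 12.1% to 9.10%.

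The other 6 subunits filled a larger part of the pool in the library labelled Pc4-OE. The share of Cct4 went from 9.59% to 13.2% and that of Cct2 from 12.3% to 14.7%. Cct7 went from 10.7% to 12.5%, Cct8 from 13.0% to 14.3%, Tcp1 from 9.85% to 10.6% and Cct3 from 11.5% to 12.0%. The 8 shares sum to the whole pool, so a smaller share of Cct5 makes the others larger even though each of these genes was lower in CPM.

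**Figure D2:**
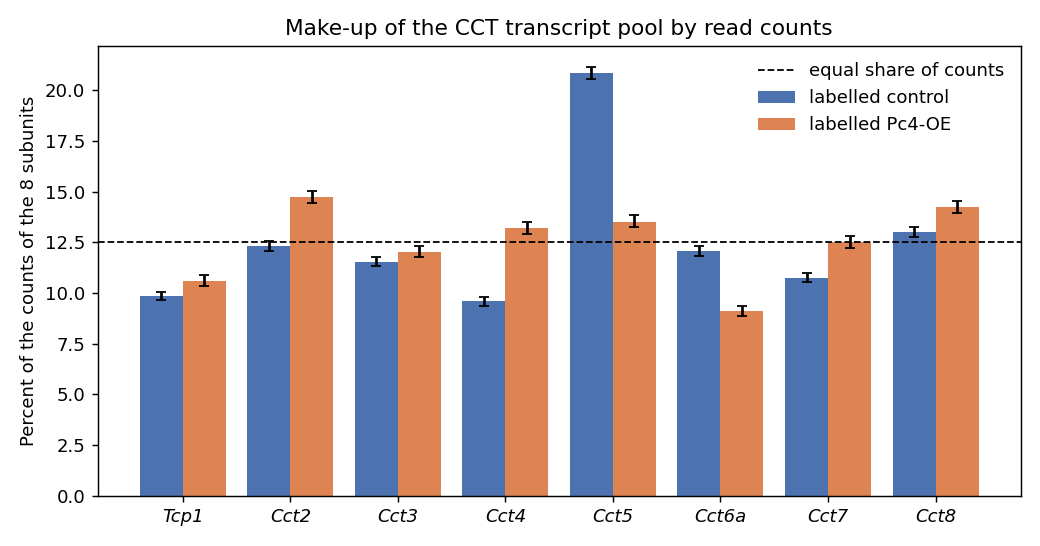
Bars give the percent of the counts of the 8 CCT genes that fell on each gene (x axis) in each library, with exact 95% binomial intervals. The dashed line is an equal split (12.5%). Cct5 goes from 20.8% to 13.5%, Cct6a from 12.1% to 9.10%, and the other 6 have a larger share in the library labelled Pc4-OE.

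Levels of different subunits were compared per kb of their longest transcript without retained introns (1853 bases for Cct5, 1959 to 2484 for the others). In the library labelled control, Cct5 stood apart at 789.8 CPM per kb. The next were Cct2 at 441.1, Cct3 at 410.1, Cct8 at 381.9, Cct6a at 345.7, Cct7 at 309.2, Tcp1 at 282.8 and Cct4 at 271.1 CPM per kb. Of neighbours in that order, only Tcp1 and Cct4 had overlapping counting intervals.

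In the library labelled Pc4-OE, Cct5 had joined the range of its partners. Cct2 led at 373.3 CPM per kb, with Cct5 at 362.3, Cct3 at 302.1, Cct8 at 295.3, Cct4 at 263.7, Cct7 at 254.7, Tcp1 at 215.0 and Cct6a at 183.9. Counting intervals overlapped between Cct2 and Cct5, between Cct3 and Cct8 and between Cct4 and Cct7. The level of Cct5 per kb was 2.28 times the median of its partners in the library labelled control and 1.37 times in the library labelled Pc4-OE. The order of subunits rests on annotated lengths, and with the longest transcript of any class the 2 ratios were 2.91 and 1.97. The ratio of highest to lowest subunit per kb was 2.91 in the library labelled control, where Cct5 was the highest, and 2.03 in the library labelled Pc4-OE, where Cct6a was the lowest.

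Cct5 also accounted for the largest piece of the difference in the whole pool. Of 2060 CPM by which the 8 genes together were lower, Cct5 made up 792.3 CPM (38.5%), and Cct5 with Cct6a 57.7%. The 7 partners together were 22.8% lower, a log2 ratio of -0.37 (interval -0.39 to -0.36). The log2 ratio of Cct5 lay 0.75 below the median of the partners, at -1.12 against -0.37.

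The testis-enriched paralog of Cct6a, Cct6b, was near the detection limit, with 23 and 31 counts (2.21 and 3.00 CPM, log2 interval -0.39 to 1.28). It added almost nothing to the zeta position in either library.

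Chaperones that hand clients to CCT had medians near 0. Prefoldin, the jaw-shaped complex that delivers unfolded actin and tubulin, had 0 of 6 subunits past the 2-fold rule in either direction. Its median log2 ratio was -0.02, with 2 intervals below 1 and 1 above. Among all measured genes, 33.1% had an interval below 1. Pfdn1 went from 126.6 to 92.1 CPM (log2 ratio -0.46) and H2-Ke2, which encodes prefoldin subunit 6, from 69.0 to 56.7 (-0.28). Pfdn2 had a log2 ratio of -0.10, Pfdn4 of 0.07 and Vbp1, prefoldin subunit 3, of 0.10. Pfdn5, which like Cct5 is on chromosome 15, had 60.5 and 70.8 CPM (0.23).

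The phosducin-like proteins, cofactors that bind CCT during folding of G-protein beta subunits, tubulin and actin, also had a median near 0. Of 4 measured, 0 met the 2-fold rule and the median log2 ratio was -0.06. Txndc9 (PhLP3) had a log2 ratio of -0.40 (interval -0.56 to -0.23), Pdcl of -0.09, Pdcl3 of -0.04 and Pdcl2 of 0.17 on 26 and 29 counts.

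The mitochondrial chaperonin, a relative of CCT that uses a separate lid, was lower. Hspd1, its HSP60 ring subunit, went from 792.3 to 377.1 CPM (8250 and 3903 counts), 2.10-fold lower (interval 2.02 to 2.18). Hspe1, the HSP10 lid, shares a promoter region with Hspd1 and had a log2 ratio of -0.50. Hspa9, the mitochondrial HSP70, had one of -0.14. A ratio near that of Cct5 was thus seen for a ring subunit of the mitochondrial machine.

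A list of 16 genes held cytosolic HSP70, HSP110 and HSP90 chaperones, their J-domain and other cochaperones, and the heat shock factors Hsf1 and Hsf2. Its median log2 ratio was -0.39, with 2 genes at least 2-fold lower and 1 higher, and with 10 intervals below 1 and 2 above. Of all measured genes, 4.02% were at least 2-fold lower, 11.8% at least 2-fold higher and 33.1% had an interval below 1. Among those whose mean reached 100 CPM, 57.9% had an interval below 1. Hspa8, the constitutive HSP70, went from 1642 to 780.4 CPM, 2.10-fold lower. Hsph1, an HSP110 exchange factor, was 2.30-fold lower. Dnaja1, a J-domain partner of HSP70, had a log2 ratio of -0.96 and Hsp90ab1, the constitutive HSP90, one of -0.69. The 2 genes with an interval above 1 were Hspa4l, an HSP110 relative that was 2.13-fold higher, and Bag3, an HSP70 cofactor with a log2 ratio of 0.87. The stress-inducible HSP70 genes Hspa1a (29 and 46 counts) and Hspa1b (59 and 74 counts) had intervals that include 0.

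Clients of CCT divided by gene. Of 12 tubulin genes, Tuba4a was 2.01-fold lower and the other 11 did not meet the rule, with a median log2 ratio of -0.36. The rule was met in the lower direction by 4.02% of all measured genes. Tubb5, the beta-tubulin with the most counts, went from 2103 to 1554 CPM (-0.44), Tubb4b from 557.7 to 309.4 (-0.85) and Tuba1b from 338.2 to 186.0 (-0.86). Of the cytoplasmic actins, Actb went from 2378 to 1644 CPM (-0.53) and Actg1 from 252.8 to 229.3 (-0.14). Among the muscle actins, Acta1 had 8 and 117 counts (0.77 and 11.3 CPM), 14.7-fold higher (interval 7.23 to 34.9). Acta2 went from 10.7 to 61.9 CPM, 5.81-fold higher, and is also in the list of fibroblast markers below. Actc1 (0 and 1 counts) and Actg2 (2 and 5 counts) had too few counts to be measured. Tubulin genes have close copies, so the split of their reads is uncertain.

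Folding cofactors that act on tubulin after CCT had a median log2 ratio of -0.07, with 0 of 6 past the rule. Their spread was wide (SD across genes 0.36), and 2 of the 6 intervals lay below 1, those of Tbcc and Tbcb (-0.29). Tbcc had the lowest ratio, -0.88 on 157 and 85 counts. Of 19 WD-repeat and other clients, 1 met the rule as lower, Ccne1 (cyclin E1, 2.32-fold), and 0 as higher, with a median of -0.03. Counting intervals lay below 1 for 5 of the 19, beside 33.1% of all measured genes, and above 1 for 7. After Ccne1, the largest differences by interval bound were those of Fbxw7 (log2 ratio -0.57), Tert (0.51) and Gnb5 (0.59). Cdc20, an activator of the anaphase-promoting complex and a classic WD-repeat client, stood at 222.7 and 217.4 CPM. Gnb2l1, the ribosomal scaffold RACK1, had the most counts of that list and stood at 1945 and 2065 CPM.

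The spread of the CCT subunits was set beside that of 3 other complexes of fixed composition, as a description of these libraries. Log2 ratios of the 14 genes of the 20S proteasome core ran from -0.60 to -0.13 (SD across genes 0.12, median -0.32). Those of the 6 MCM helicase genes ran from -0.97 to -0.54 (SD 0.16, median -0.64). Those of the 6 prefoldin genes ran from -0.46 to 0.23 (SD 0.26, median -0.02). The 8 CCT genes ran from -1.12 to -0.04 (SD 0.36, median -0.38), where the lowest value is that of Cct5, the gene the contrast was selected for. The gene farthest from the median of its partners was Cct5 in the ring (-0.75), Pfdn1 in prefoldin (-0.53), Mcm7 in the helicase (-0.34) and Psmb7 in the proteasome (-0.29). Mcm7 lies on chromosome 5, as Cct6a does.

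**Figure D3:**
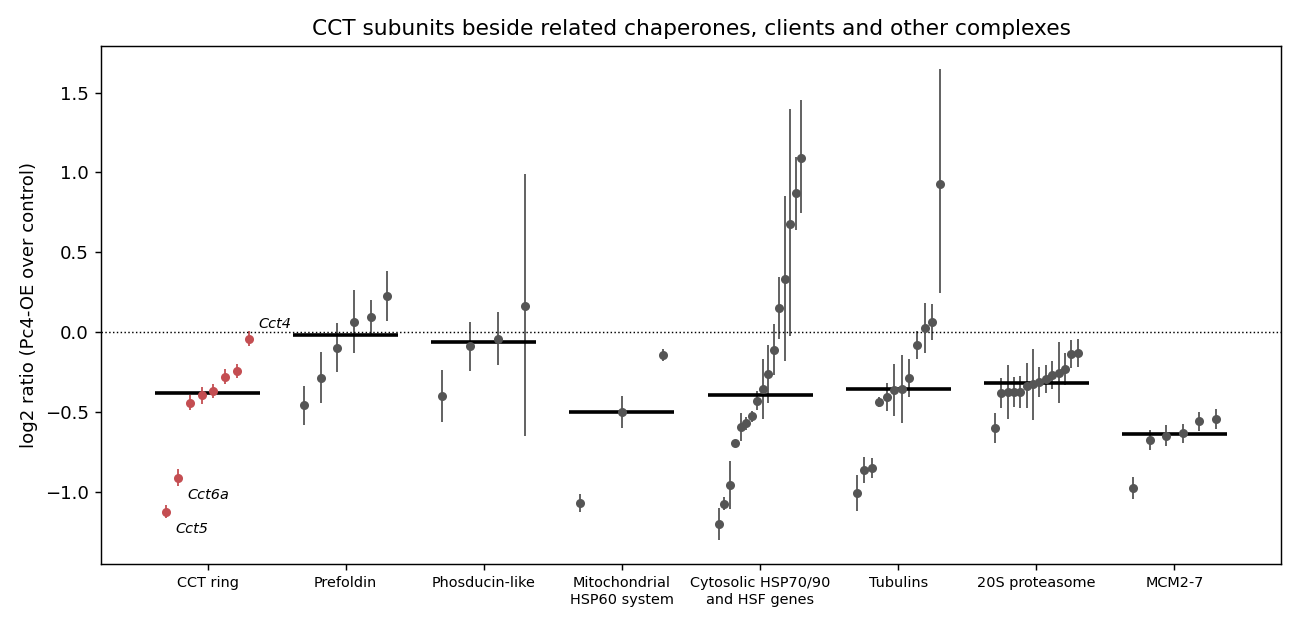
Points are log2 ratios (Pc4-OE over control) of single genes with 95% counting intervals, sorted within each list, and black bars are medians. The CCT genes (red) spread from -1.12 to -0.04, with Cct5 and Cct6a below the other 6, while the 20S proteasome genes lie between -0.60 and -0.13.

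Position in the genome was described next, because Cct5 is on chromosome 15 as Sub1 is. Cct5 lies at 31590800 to 31601846 of chromosome 15 on the minus strand, 19.6 Mb from Sub1, and Cct6a at 129787356 to 129846443 of chromosome 5 on the plus strand (GRCm38). Within 5 Mb of the Cct5 start, the median log2 ratio of the 33 other measured genes was -0.53, and 21 of them were below 0. For comparison, the median was -0.07 over the 567 other measured genes of chromosome 15 and -0.01 over all measured genes. Within 10 Mb the median was -0.55 over 58 genes, and within 1 Mb it was 0.21 over only 8 genes. Within 5 Mb, 4 of 33 genes had a lower ratio than Cct5.

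Toward higher coordinates, medians stayed below 0 up to 40 Mb beyond Cct5. From Cct5 to 10 Mb beyond it, the median was -0.61 over 40 genes, and from 20 to 30 Mb it was -0.73 over 39 genes. From 40 to 50 Mb the median was 0.02 over 158 genes. The bins with fewer than 20 genes, from 10 to 20 Mb (8 genes, -0.88) and from 30 to 40 Mb (12 genes, -0.47), were also below 0. On the side of Sub1 the median was -0.24 over 18 genes within 10 Mb, -0.45 over 11 genes from 10 to 20 Mb and -0.56 over 40 genes from 20 to 30 Mb.

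**Figure D4:**
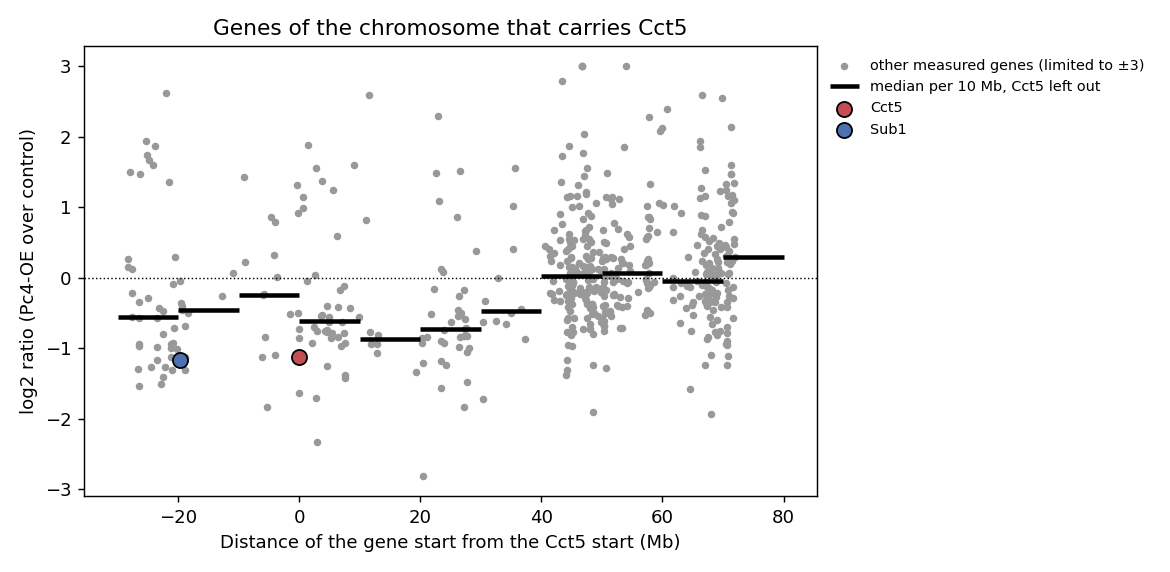
Points are log2 ratios (Pc4-OE over control, limited to ±3) of measured genes of chromosome 15 by the distance of their start from that of Cct5 in Mb, and black lines are medians per 10 Mb. The medians are below 0 up to 40 Mb beyond Cct5, and Cct5 and Sub1 lie below the medians of their bins.

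The 6 measured protein-coding genes that start within 500 kb of Cct5 went both ways. Fam173b, a mitochondrial lysine methyltransferase gene that starts 270 bases from Cct5 on the opposite strand, had 102 and 61 counts, a log2 ratio of -0.73 (interval -1.22 to -0.26). March6, an ER ubiquitin ligase, went from 214.3 to 118.1 CPM (-0.86), and Cmbl had 25 and 8 counts (-1.64). Ropn1l had 17 and 12 counts, with an interval that includes 0. Dap, a death-associated protein gene, went from 35.3 to 88.1 CPM (1.32) and Ankrd33b from 6.15 to 11.6 CPM (0.92). Higher and lower genes thus lie side by side around Cct5.

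The surroundings of the other subunits were compared in the same way. The genes within 5 Mb of Cct6a had a median log2 ratio of -0.34 over 51 genes, of which 34 were below 0 and 4 had a lower ratio than Cct6a. Chromosome 5 as a whole had the lowest median among the autosomes and X, -0.30 over 897 genes, beside -0.01 for all measured genes. The medians within 5 Mb were 0.00 around Tcp1, 0.03 around Cct2, 0.16 around Cct3, -0.11 around Cct4, -0.09 around Cct7 and -0.15 around Cct8. In windows of this width, the 2 lowest subunits were also the 2 with the lowest surroundings. Within 1 Mb this did not hold, since the median around Cct5, 0.21 over 8 genes, was the highest of the 8 subunits.

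Set against the median of its surroundings within 5 Mb, Cct5 lay close to Cct3 and Cct6a. The difference was -0.59 for Cct5, -0.61 for Cct3 and -0.57 for Cct6a. It was -0.40 for Tcp1, -0.27 for Cct2, -0.22 for Cct8, -0.19 for Cct7 and 0.07 for Cct4. With the 8 genes within 1 Mb as the reference, the difference for Cct5 was -1.34, so the comparison rests on the width of the window. Whether position has a part in the ratio of Cct5 or of Cct6a was not tested.

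**Figure D5:**
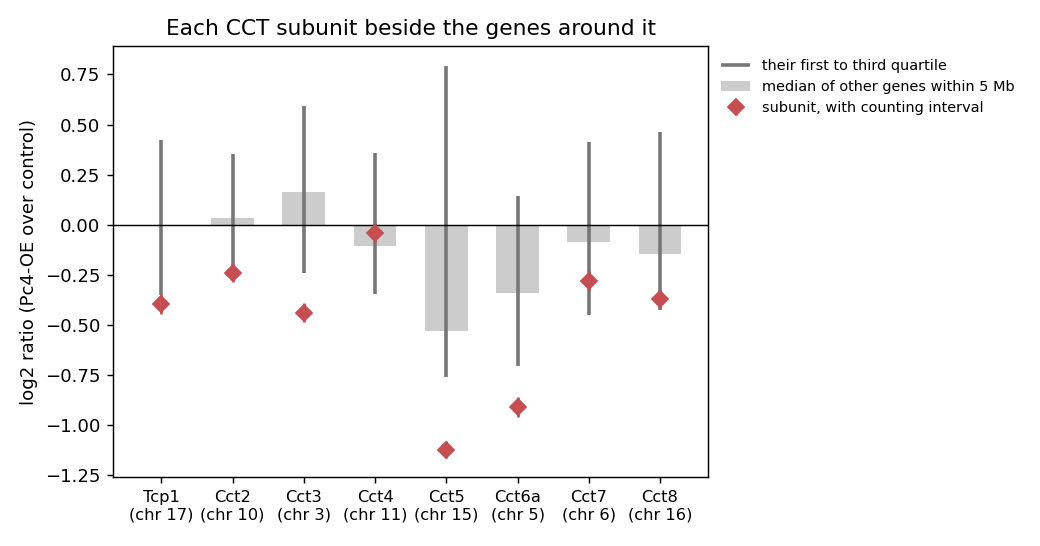
For each CCT gene, the red diamond is its log2 ratio (Pc4-OE over control), the grey bar the median of the other measured genes within 5 Mb, and the grey line their interquartile range. The bars of Cct5 (-0.53) and Cct6a (-0.34) are the lowest, and Cct4 alone lies above its bar.

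Genes that share a start region or exons with a subunit were also listed. Psph, phosphoserine phosphatase, starts 87 bases from Cct6a on the opposite strand and went from 76.8 to 37.3 CPM (log2 ratio -1.04). Pradc1 starts 482 bases from Cct7 and had 138 and 67 counts (-1.03), a larger difference than that of Cct7 (-0.28). Tsacc, 136 bases from Cct3, had 57 and 41 counts with an interval that includes 0. In GENCODE M21, Psph overlaps 12.5% of the annotated exon bases of Cct6a, Acat3 11.4% of those of Tcp1, Usp16 6.22% of those of Cct8 and Pradc1 3.16% of those of Cct7, all on the opposite strand, and smaller overlaps with Mrpl18 and with snoRNA genes fall in Tcp1 and Cct6a. The exons of Cct5, Cct2, Cct3 and Cct4 overlap no other annotated gene. RefSeq lists pseudogene copies of Tcp1 and Cct3 (Tcp1-ps1 and Cct3-ps1), and how multiply mapping reads were counted for these 2 is unknown.

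Where the CCT genes were lower, fibroblast and macrophage markers were higher. All 24 fibroblast markers, the feeder cell type, had a ratio above 1, and their summed level went from 7957 to 20188 CPM. Of them, 19 were at least 2-fold higher. Of 17 macrophage markers, 16 were measured and all 16 had a ratio above 1, with a summed level of 228.1 and 630.1 CPM. Laptm5 held 109.6 and 131.6 CPM of that sum, and 15 of the 16 were at least 2-fold higher. For all measured genes the median log2 ratio was -0.01, and 11.8% were at least 2-fold higher. Of 10 stem cell markers, all present in both libraries, 6 had a ratio below 1, with a median log2 ratio of -0.13 and a summed level of 6011 and 4821 CPM. Counting intervals lay below 1 for 5 of the 10 and above 1 for 3. Intervals below 1 were found for 33.1% of all measured genes and 57.9% of those whose mean reached 100 CPM. Tdgf1 (1792 and 1114 CPM) and Pou5f1 (1092 and 571.4 CPM) made up most of the lower sum. Dppa4 (log2 ratio -0.81) and Utf1 (-0.49) were also lower, while Nanog (0.24), Klf4 (0.22) and Dppa5a (0.07) had intervals above 1. No fibroblast, macrophage or stem cell marker of these lists was at 0 in either library. The part of other cell types in the lower CCT values was not tested, and in bulk RNA fewer cells of a type and less RNA per cell cannot be told apart. The share of Cct5 among the CCT counts carries the same limit, since other cell types may hold the subunits in other proportions.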

How the data were processed

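Poly(A) RNA of 2 mouse embryonic stem cell libraries was prepared with a stranded kit, per the labels' protocols. The authors deposited 1 table of whole-number read counts per gene. Per the submitters' processing notes, STAR 2.4.1c and featureCounts were used with mm10. Which annotation, strand setting and rule for multiply mapping reads applied was not given in the sources used here.

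Counts were scaled with TMM (edgeR 4.0.16, R 4.3.3), and ratios were taken without a pseudocount in Python 3.11.15 with SciPy 1.17.1. Genes with at least 20 counts over both libraries count as measured (14213). Ratio and share intervals are exact (95%), cover counting error only, and treat reads as independent, which PCR copies are not. With 1 library per group no p-value was computed. Positions came from RefSeq (GRCm38.p6, the assembly of mm10) by gene ID, which matched 99.7% of rows, and lengths, strands and exons from GENCODE M21.

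The members and the 17 gene lists were chosen with earlier results of these data known. Named genes are all members, every gene of the small chaperone lists, and up to 4 genes of each other list. Those 4 were ranked by the interval bound nearest to a ratio of 1, largest difference first, and some lists have fewer named. Neighbours of Cct5 within 500 kb and genes that start within 1 kb of a subunit on the opposite strand were also named. Gnb2l1, Cdc20, Hsp90ab1, Bag3, Hspa1a, Hspa1b, Hsf1, Hsf2, Mycn, Nanog, Klf4, Dppa5a, Mrpl18, Usp16 and Acat3 were named after their values were seen.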

Additional observations from a re-analysis of the deposited data

How the results depend on the processing

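Of 32 values of single subunits under other scalings (library totals, median-of-ratios size factors, upper-quartile factors) or with 0.5 CPM added, 31 stayed within the counting interval of the reported value. The other was Cct5 with library totals, at -1.08 (log2). The median of the 8 subunits lay between -0.40 and -0.37 with any 1 subunit left out, and was -0.33 without Cct5 and Cct6a. The log2 ratio of Cct5 less that of its partners was -0.75 against the summed partners and, in a comparison added after the data were seen, -0.80 against the 6 other than Cct6a. With an assumed coefficient of variation of 0.1 per library, 3 subunits and 18.5% of measured genes had an interval below 1. With 0.4, 0 subunits did and 0 met the 2-fold rule, beside 0.675% of measured genes for either, so these counts rest on counting error alone. With median-of-ratios size factors the interval of Cct4 was also below 1, making 8 of 8. The share of Cct5 was 27.5% and 18.4% per kb of the longest transcript, and 24.4% and 16.1% per kb of the longest transcript without retained introns, a choice added later. The median around Cct5 was 0.21 within 1 Mb (8 genes). The median of all measured genes was -0.01 as reported, 0.0313 with library totals and 0.00875 with no count minimum beyond 1 count in each library. The depth is not the limit for the 8 subunits, each with at least 4670 counts. The limit is the single library per group. No paired analysis was possible because each group has 1 library, and for the same reason no replicate could be left out.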

Other observations

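Other lists held the MYC and MAX network and the chaperonin-like Bardet-Biedl genes. Of 9 genes of the MYC and MAX network, Myc, on chromosome 15 as Cct5 is, was the only one at least 2-fold lower. It went from 89.8 to 27.3 CPM (935 and 283 counts, log2 ratio -1.72), and 4.02% of all measured genes were at least 2-fold lower. Mxd3 (106 and 55 counts, log2 ratio -0.94) and Mlx (-0.60) were also lower. Mycn, a paralog of Myc, stood at 105.4 and 117.2 CPM (0.15), and Mnt, a repressor of the network, at 44.9 and 64.1 (0.51). Counting intervals lay below 1 for 4 of the 9 genes and above 1 for 5, and the median of the list was 0.15. Intervals lay below 1 for 33.1% of all measured genes and for 57.9% of those whose mean reached 100 CPM. Whether Myc has a part in the CCT values was not tested. The chaperonin-like Bardet-Biedl genes, distant relatives of CCT that work with it to assemble the BBSome, included 0 of 3 past the 2-fold rule. Mkks had a log2 ratio of -0.37 (226 and 174 counts), and Bbs10 and Bbs12 had intervals that include 0.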
